A study of Mus musculus with 9 samples.

Results

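The 10 genes described here encode enzymes of antioxidant and glutathione defence: Gclc, Gclm, Gpx1, Gpx2, Gpx3, Gpx4, Txnrd1, Srxn1, Nqo1 and Hmox1. They were chosen by symbol, and each matched 1 of the 48708 genes of the deposited table. The RNA came from small intestine of C57BL/6 mice, postnatal week 8, that had acute graft-versus-host disease, an attack of grafted donor T cells on the recipient's tissues. Of the 9 libraries, 3 were Ripk3-KO, in which Ripk3 is deleted in the whole body, 3 were VilCre-Ripk3fl/fl, in which a Villin-driven Cre deletes Ripk3 in intestinal epithelium, and 3 were wild type (WT). The comparison asks what loss of RIPK3, a kinase of the necroptosis pathway of cell death, does to the diseased intestine, in every cell or in the epithelium alone. By this design, in VilCre-Ripk3fl/fl mice cells outside the epithelium keep Ripk3. All 3 groups carry the disease and no healthy intestine was analysed here, so no value is a level before disease. The labels do not say whether donor cells carried the deletion, nor the sex of the mice, nor whether the libraries of a group came from separate animals. P-values therefore measure no more than the variation among these libraries, and that variation may be technical.

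Glutathione is a small thiol made in 2 steps, the first catalysed by glutamate-cysteine ligase, whose catalytic subunit is Gclc and whose modifier subunit is Gclm. Glutathione peroxidases use it to reduce hydrogen peroxide and lipid peroxides, and a parallel system built on thioredoxin and peroxiredoxins does the same work with thioredoxin reductase as its source of electrons. Many of these genes are targets of the transcription factor NRF2 (gene Nfe2l2), which KEAP1 holds at a low level until oxidants or electrophiles release it, and which binds the antioxidant response element. In the intestine the epithelium faces oxidants from microbes, food and infiltrating phagocytes.

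The 9 libraries held between 25375499 and 41038990 counts. The targeted gene followed the labels: Ripk3 averaged 3.61 ± 0.242 CPM in Ripk3-KO, 6.45 ± 0.911 CPM in VilCre-Ripk3fl/fl and 113 ± 0.979 CPM in WT libraries (SD, n = 3 each), where CPM is counts per 1000000, with library sizes scaled by TMM. Ripk3-KO libraries carried the female transcript Xist at 276 CPM, against 7.50 CPM in VilCre-Ripk3fl/fl and 8.46 CPM in WT libraries, so sex and whole-body deletion cannot be told apart. Other tissues were present in unequal amounts. Summed over 12 exocrine pancreas genes, the libraries held 105 to 124 CPM in Ripk3-KO, 18538 to 19759 CPM in VilCre-Ripk3fl/fl and 2384 to 2424 CPM in WT. Summed over 10 adipocyte genes, they held 2133 to 2286 CPM in Ripk3-KO, 300.5 to 320.3 CPM in VilCre-Ripk3fl/fl and 147 to 159 CPM in WT. Summed over 12 epithelial genes, the range was 18620.0 to 19435 CPM in Ripk3-KO, 18069 to 18451 CPM in VilCre-Ripk3fl/fl and 15736 to 15867 CPM in WT, so the epithelium named in the labels was well represented in each group.

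The bases just upstream of the members are shown because NRF2 and AP-1 type factors are known regulators of this gene group, and because the members with such letters there, Gclm, Txnrd1 and Srxn1, can be set beside Gpx4 and Gpx2, 2 members with large differences between groups. Sequences are from RefSeq, build GRCm38.p6, as the 250 bases before the listed start, 5′ to 3′ on the gene's own strand. Of the 10 members, 8 had entries, with 13 starts in all. Hmox1 and Gclc had no entry and were not searched. Capitals mark TGACNNNGC, the core of the antioxidant response element, or TGANTCA, an AP-1 type site, each searched on both strands, so that a match on the other strand shows in capitals as its reverse complement.
Gclm, chr3:122245307-122245556, + strand: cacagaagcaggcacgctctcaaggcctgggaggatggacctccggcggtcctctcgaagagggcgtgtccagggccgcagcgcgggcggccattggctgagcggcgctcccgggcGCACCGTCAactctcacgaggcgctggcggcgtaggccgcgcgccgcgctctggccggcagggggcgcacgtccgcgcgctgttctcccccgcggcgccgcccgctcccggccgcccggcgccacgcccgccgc
Txnrd1, chr10:82858956-82859205, + strand: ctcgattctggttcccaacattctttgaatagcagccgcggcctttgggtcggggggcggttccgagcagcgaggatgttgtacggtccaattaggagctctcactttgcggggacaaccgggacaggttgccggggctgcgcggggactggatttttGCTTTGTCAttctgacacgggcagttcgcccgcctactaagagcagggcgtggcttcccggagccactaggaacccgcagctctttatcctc
Srxn1, chr2:152105274-152105523, + strand: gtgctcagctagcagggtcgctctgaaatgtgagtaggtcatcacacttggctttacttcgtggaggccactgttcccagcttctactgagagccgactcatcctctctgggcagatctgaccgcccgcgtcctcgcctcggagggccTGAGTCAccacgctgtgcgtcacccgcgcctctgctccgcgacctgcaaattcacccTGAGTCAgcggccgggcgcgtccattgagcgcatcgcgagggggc
Gpx4, chr10:80053315-80053564, + strand: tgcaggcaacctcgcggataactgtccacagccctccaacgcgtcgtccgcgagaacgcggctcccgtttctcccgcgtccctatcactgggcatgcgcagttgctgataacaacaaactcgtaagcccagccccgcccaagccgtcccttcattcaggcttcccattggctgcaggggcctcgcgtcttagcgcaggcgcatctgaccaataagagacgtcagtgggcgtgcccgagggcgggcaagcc
Gpx2, chr12:76795555-76795804, - strand: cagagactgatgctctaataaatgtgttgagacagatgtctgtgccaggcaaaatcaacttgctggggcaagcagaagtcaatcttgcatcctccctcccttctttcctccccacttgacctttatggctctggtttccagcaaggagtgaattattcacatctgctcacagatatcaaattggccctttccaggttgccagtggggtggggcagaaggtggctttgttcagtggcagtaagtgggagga
TGACNNNGC lay on the opposite strand in Gclm, its first printed base 134 bases before the start, and in Txnrd1, 92 bases before the start. It was in 10.2% of the 32851 windows of this length in the table, and in 2 of the 13 windows of the members: the 1 of Gclm and 1 of the 3 of Txnrd1. TGANTCA was found at 102 and 45 bases before the start of Srxn1, in 1 of the 13 windows of the members and in 6.75% of all windows. The run at 45 bases is followed by GC, so these letters differ from TGACNNNGC in 1 position. The windows shown for Gpx4, which has 4 listed starts, and for Gpx2 held neither TGACNNNGC nor TGANTCA. The same was true of the other windows of Gpx4 and of those of Gpx1, Gpx3 and Nqo1, which are not shown. A match is a run of letters and no evidence of binding, and these windows do not cover more distant elements.

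Among the 10 members, Gpx4 was higher and Gclc and Hmox1 were lower in both deletions than in WT, whereas Gpx2 was lower in Ripk3-KO and higher in VilCre-Ripk3fl/fl. All 10 passed the filter on low counts, and their lowest count in any library was 86. A gene is called where the adjusted p of edgeR's quasi-likelihood test over all 16539 tested genes is under 0.05. In Ripk3-KO against WT, 8 of 10 members were called, 3 higher and 5 lower, beside 55.4% of all tested genes (27.3% higher and 28.1% lower), and the libraries of the groups did not overlap for 10 of 10 members, beside 63.5% of all tested genes. In VilCre-Ripk3fl/fl against WT, 8 of 10 were called, 4 higher and 4 lower, beside 55.6% (27.2% higher and 28.4% lower), with 8 of 10 not overlapping, beside 61.4%. In Ripk3-KO against VilCre-Ripk3fl/fl, 7 of 10 were called, 4 higher and 3 lower, beside 31.7% (16.6% higher and 15.1% lower), with 7 of 10 not overlapping, beside 40.8%. Because so many genes passed the threshold, a call by itself sets no member apart, and the sizes below carry the description. The same shares of all tested genes belong beside every count of called genes below, for the lists and for the genes of cell types. The median size of the members' log2 fold change, sign ignored, was 0.24, 0.45 and 0.24 in the order of comparisons above, against 0.38, 0.39 and 0.22 over all tested genes. The members' signed medians were -0.15, -0.07 and -0.02, against 0.01, 0.02 and 0.01 over all tested genes. The comparisons with WT share the same 3 WT libraries, so their values are given side by side and not as a check of each other.

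**Figure D1:**
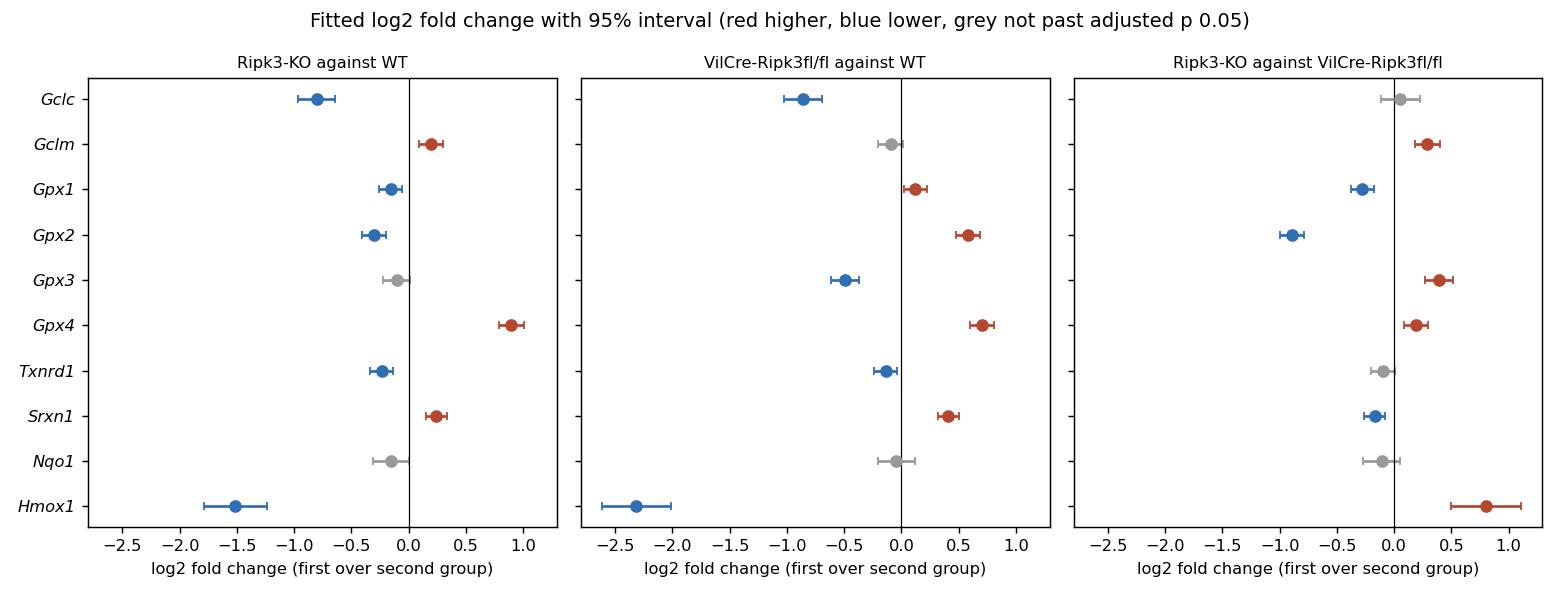
Fitted log2 fold change (x axis) of the 10 members in Ripk3-KO against WT, VilCre-Ripk3fl/fl against WT and Ripk3-KO against VilCre-Ripk3fl/fl, first group over second. Points are edgeR estimates with 95% intervals, red where higher, blue where lower and grey where the adjusted p was not under 0.05; Hmox1 lies farthest left against WT at -1.51 and -2.32, Gpx4 farthest right at 0.90 and 0.70, and Gpx2 changes side between the panels against WT.

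**Figure D2:**
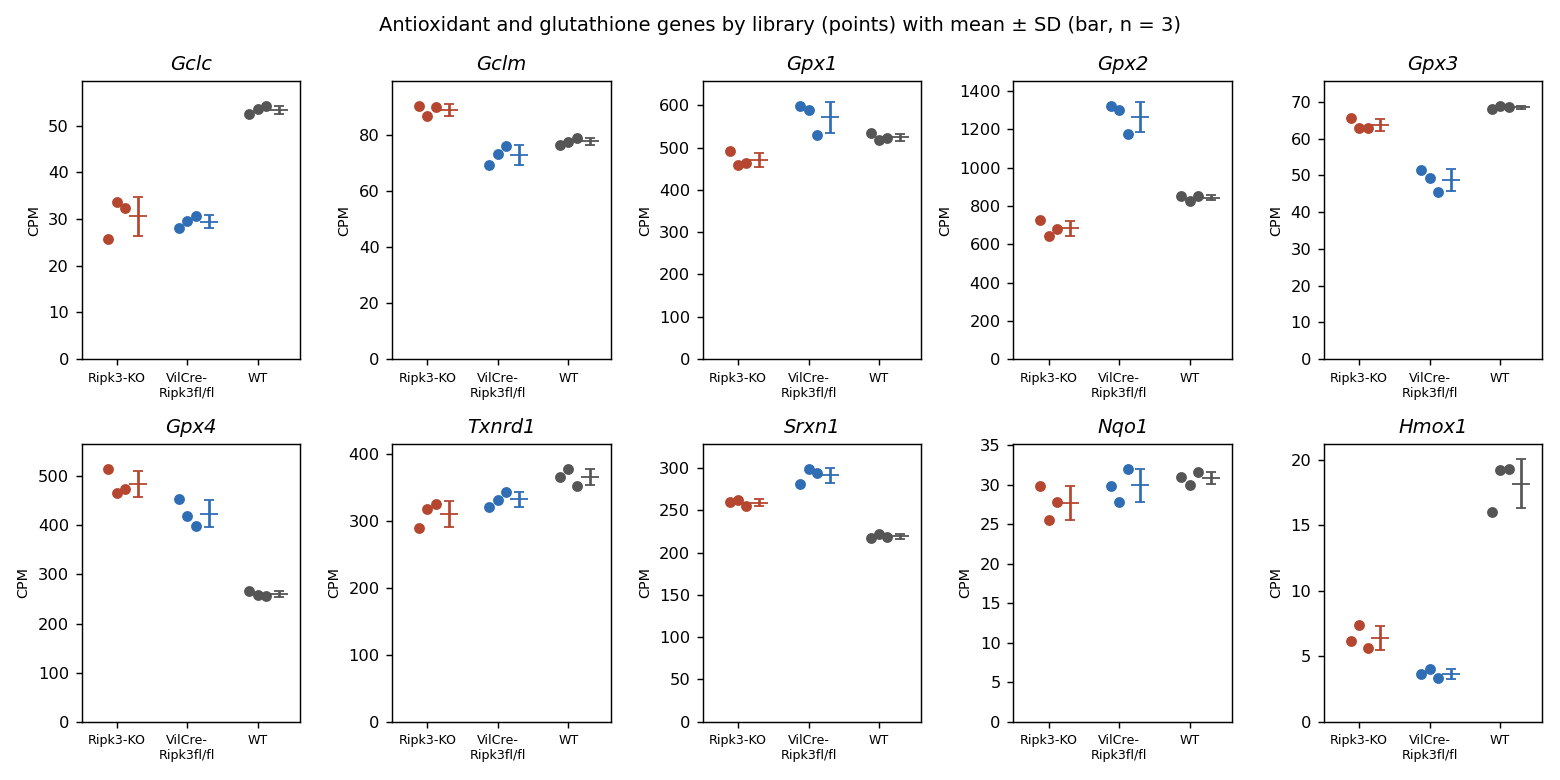
CPM of each member (y axis, from 0) in the 3 Ripk3-KO, 3 VilCre-Ripk3fl/fl and 3 WT libraries. Points are libraries and bars are mean ± SD (n = 3); the Gclc and Hmox1 points of both deletions lie below all WT points, and the Gpx4 and Srxn1 points of both deletions lie above them.

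Of the 2 subunits of glutamate-cysteine ligase, Gclc fell in both deletions and Gclm rose in Ripk3-KO. Gclc (ENSMUSG00000032350, chr9:77754535-77794485, + strand, build mm10, as are all gene positions below) was at 25.7, 33.7 and 32.3 CPM in Ripk3-KO libraries, 28.0, 29.6 and 30.7 CPM in VilCre-Ripk3fl/fl libraries and 52.6, 53.5 and 54.2 CPM in WT libraries. Every library of either deletion was below every WT library, and the deletions overlapped each other. Gclc fell, with a log2 change of -0.80 ± 0.08 (SE) in Ripk3-KO against WT (edgeR adjusted p = 3.82e-09) and of -0.86 ± 0.08 (SE) in VilCre-Ripk3fl/fl against WT (edgeR adjusted p = 2.15e-09). These are folds of 1.75 and 1.81. Its log2 change between the deletions was 0.05, with a 95% interval of -0.12 to 0.22 (edgeR adjusted p = 0.667). In bulk tissue, fewer cells that express a gene and less of its RNA per cell cannot be told apart, and this holds for every value below.

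Gclm (ENSMUSG00000028124, chr3:122245557-122270732, + strand), whose upstream bases hold the antioxidant response element core shown above, was at 90.2, 86.6 and 90.0 CPM in Ripk3-KO, 69.2, 73.0 and 76.1 CPM in VilCre-Ripk3fl/fl and 76.4, 77.6 and 79.0 CPM in WT libraries. All Ripk3-KO libraries were the highest, and the highest VilCre-Ripk3fl/fl library lay just under the lowest WT library. Gclm rose in Ripk3-KO against WT by a log2 change of 0.20 ± 0.05 (SE) (edgeR adjusted p = 0.00283), and its log2 change of -0.09 ± 0.05 (SE) in VilCre-Ripk3fl/fl against WT was not called (edgeR adjusted p = 0.146). Between the deletions it was higher in Ripk3-KO by a log2 change of 0.29 ± 0.05 (SE) (edgeR adjusted p = 0.000133). Within a library, the ratio of Gclc to Gclm in the deposited TPM, which is scaled by gene length, was 0.524, 0.715 and 0.660 in Ripk3-KO libraries, 0.745, 0.746 and 0.741 in VilCre-Ripk3fl/fl libraries and 1.26, 1.27 and 1.26 in WT. The catalytic subunit's transcript thus outnumbered that of the modifier in all 3 WT libraries and was the scarcer one in all 6 libraries of the deletions. This ratio was chosen after its values were seen and has no test. Gclm itself was at 21.8, 23.7 and 25.1 TPM in VilCre-Ripk3fl/fl and 29.8, 30.7 and 30.8 TPM in WT libraries. That gap is wider than in CPM, so the size of this Gclm difference depends on the scaling. Gclm lies over 14775 bases of the predicted gene Gm17494 on the opposite strand, which was at 1.88 CPM in Ripk3-KO, 2.02 CPM in VilCre-Ripk3fl/fl and 2.54 CPM in WT libraries. Whether counting used strand is not stated, so reads of such pairs cannot be told apart.

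**Figure D3:**
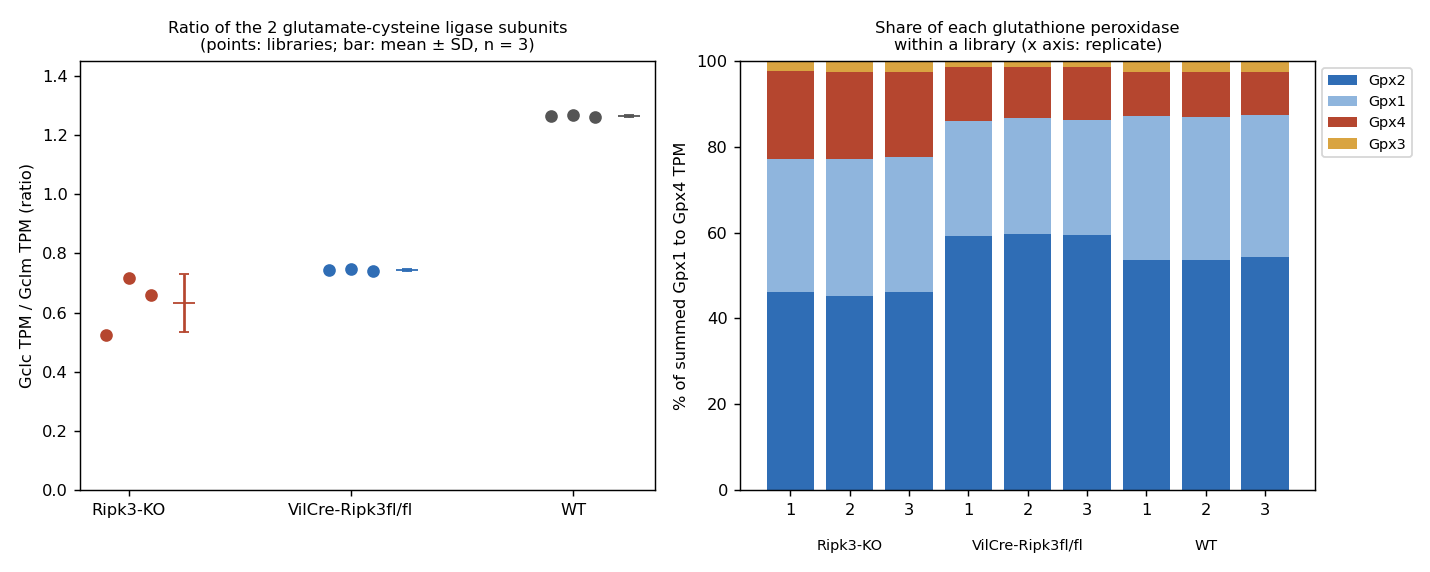
Left, ratio of Gclc TPM to Gclm TPM in each library (points) with mean ± SD (n = 3): 0.633 ± 0.0983 in Ripk3-KO, 0.744 ± 0.00292 in VilCre-Ripk3fl/fl and 1.26 ± 0.00391 in WT. Right, share in % of the summed TPM of Gpx1 to Gpx4 that each takes in every library (1 bar per library); the Gpx4 share is largest in Ripk3-KO and the Gpx2 share largest in VilCre-Ripk3fl/fl.

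Around this step, 18 other genes of glutathione synthesis and recycling were tested. In Ripk3-KO against WT, 8 were higher and 4 lower, with a median log2 fold change of 0.25, and in VilCre-Ripk3fl/fl against WT, 7 were higher and 3 lower, with a median of 0.16. Called in all were 12 and 10 of 18, beside 55.4% and 55.6% of all tested genes. Dpep1, a dipeptidase that splits cysteinylglycine, averaged 238 CPM in Ripk3-KO, 250.4 CPM in VilCre-Ripk3fl/fl and 115 CPM in WT libraries, with log2 changes of 1.05 and 1.12 in the deletions against WT (edgeR adjusted p = 1.15e-14 and 3.97e-15). Ggt1, the gamma-glutamyltransferase that acts before it, rose, with log2 changes of 0.75 and 0.83 (edgeR adjusted p = 4.12e-13 and 7.83e-14). Of its relatives, named after their values were seen, Ggt6 had a log2 change of 0.08 in Ripk3-KO that was not called and one of 0.50 in VilCre-Ripk3fl/fl that was (edgeR adjusted p = 0.41 and 1.65e-05). Ggt7, at 0.25 and -0.33 on the log2 scale, was called in neither (edgeR adjusted p = 0.587 and 0.497).

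Slc7a11, the cystine importer, was at 0.458 ± 0.235 CPM in Ripk3-KO, 1.67 ± 0.341 CPM in VilCre-Ripk3fl/fl and 7.38 ± 1.06 CPM in WT libraries (SD, n = 3 each). Its log2 change against WT was -3.98 in Ripk3-KO, and it was -2.14 in VilCre-Ripk3fl/fl (edgeR adjusted p = 1.53e-11 and 1.68e-07), and the call between the deletions was also lower in Ripk3-KO, with a log2 change of -1.84 (edgeR adjusted p = 5.42e-05). Its partner chain Slc3a2, named after its values were seen, was not low: it rose, with log2 changes of 0.40 and 0.48 in the deletions against WT (edgeR adjusted p = 1.4e-07 and 6.14e-09). Gsr, glutathione reductase, averaged 226 CPM in Ripk3-KO, 346 CPM in VilCre-Ripk3fl/fl and 404 CPM in WT libraries, log2 changes of -0.84 and -0.22 against WT (edgeR adjusted p = 3.04e-14 and 0.00019). Chac1, which degrades glutathione inside the cell, fell, with log2 changes of -1.63 and -1.67 in the deletions against WT (edgeR adjusted p = 3.33e-05 and 3.79e-05).

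The 4 glutathione peroxidases differed in direction from each other and between the deletions. Gpx4 (ENSMUSG00000075706, chr10:80047166-80056439, + strand), the peroxidase that reduces lipid peroxides in membranes and restrains ferroptosis, was at 515, 465 and 475 CPM in Ripk3-KO libraries, 454, 420.0 and 398 CPM in VilCre-Ripk3fl/fl libraries and 266, 258 and 257 CPM in WT libraries. The 3 groups did not overlap, with Ripk3-KO highest and WT lowest. Gpx4 rose 1.86-fold in Ripk3-KO against WT, a log2 change of 0.90 ± 0.05 (SE) (edgeR adjusted p = 9.43e-14), and 1.63-fold in VilCre-Ripk3fl/fl against WT, a log2 change of 0.70 ± 0.05 (SE) (edgeR adjusted p = 1.56e-11). The difference between the deletions was a log2 change of 0.19, higher in Ripk3-KO (edgeR adjusted p = 0.00451). In the edgeR fit Gpx4 had the largest positive change of the 10 members in both comparisons with WT.

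Gpx2 (ENSMUSG00000042808, chr12:76792335-76795554, - strand), an epithelial peroxidase of the gastrointestinal tract, was at 725, 644 and 680.1 CPM in Ripk3-KO, 1321, 1299.9 and 1174 CPM in VilCre-Ripk3fl/fl and 851, 828 and 854 CPM in WT libraries. WT libraries lay between the deletions, with no overlap. Gpx2 fell, with a log2 change of -0.31 ± 0.05 (SE) in Ripk3-KO against WT (edgeR adjusted p = 1.25e-05), and rose, with a log2 change of 0.58 ± 0.05 (SE) in VilCre-Ripk3fl/fl against WT (edgeR adjusted p = 3.61e-10). Between the deletions the log2 change was -0.89 ± 0.05 (SE), lower in Ripk3-KO, which is the largest difference between the deletions among the members (edgeR adjusted p = 1.81e-13). The whole of Gpx2, 3220 bases, lies inside Fntb on the opposite strand, which was at 15.1 CPM in Ripk3-KO, 15.0 CPM in VilCre-Ripk3fl/fl and 13.0 CPM in WT libraries, far under Gpx2 itself. The summed epithelial genes were higher in both deletions than in WT, as given above, and among those 12 genes 5 were higher and 5 lower in Ripk3-KO against WT, and 6 were higher and 1 lower in VilCre-Ripk3fl/fl against WT. The part of epithelial content in the Gpx2 values was not tested.

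Gpx1 (ENSMUSG00000063856, chr9:108338903-108340343, + strand), the ubiquitous cytosolic peroxidase, was at 491, 459 and 463 CPM in Ripk3-KO, 598, 588 and 529 CPM in VilCre-Ripk3fl/fl and 534, 517 and 523 CPM in WT libraries. Ripk3-KO libraries lay below all others, and 1 VilCre-Ripk3fl/fl library lay inside the WT range. Gpx1 fell in Ripk3-KO against WT, with a log2 change of -0.16 ± 0.05 (SE) (edgeR adjusted p = 0.0082), and upper-quartile scaling ended this call (edgeR adjusted p = 0.0916). The higher call, with a log2 change of 0.12 ± 0.05 (SE) in VilCre-Ripk3fl/fl against WT (edgeR adjusted p = 0.034) was lost without VilCre-Ripk3fl/fl replicate 1 or 2, without any 1 WT library and with no filter beyond 1 read, with edgeR adjusted p of 0.0653 to 0.137. In the deposited TPM the direction was the other: Gpx1 was at 1105, 1121 and 1024 TPM in VilCre-Ripk3fl/fl libraries, all below the 1221, 1202 and 1195 TPM in WT libraries, so the sign of this difference depends on the scaling. The Gpx1 difference between the deletions was a log2 change of -0.28 ± 0.05 (SE), lower in Ripk3-KO (edgeR adjusted p = 6.27e-05), and in TPM the libraries of the deletions overlapped.

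Gpx3 (ENSMUSG00000018339, chr11:54902453-54910377, + strand), a secreted peroxidase made by kidney and adipose tissue as well as gut, was at 65.6, 62.8 and 62.8 CPM in Ripk3-KO, 51.4, 49.2 and 45.5 CPM in VilCre-Ripk3fl/fl and 68.1, 68.8 and 68.6 CPM in WT libraries. The VilCre-Ripk3fl/fl libraries were the lowest, and Ripk3-KO libraries lay a little under WT libraries without overlap. Gpx3 fell in VilCre-Ripk3fl/fl against WT, with a log2 change of -0.49 ± 0.06 (SE) (edgeR adjusted p = 1.19e-07), and its log2 change of -0.10 ± 0.06 (SE) in Ripk3-KO against WT was not called (edgeR adjusted p = 0.128). Between the deletions it was higher in Ripk3-KO by a log2 change of 0.39 ± 0.06 (SE) (edgeR adjusted p = 1.03e-05). All 10 adipocyte genes were higher in both deletions against WT and higher in Ripk3-KO than in VilCre-Ripk3fl/fl, with the summed levels given above. The part of adipose tissue in the Gpx3 values was not tested.

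As shares of the summed TPM of these 4 peroxidases within a library, Gpx4 made up 20.1 ± 0.164% in Ripk3-KO, 12.4 ± 0.350% in VilCre-Ripk3fl/fl and 10.3 ± 0.152% in WT (SD, n = 3 each). Gpx2 made up 45.8 ± 0.563%, 59.5 ± 0.247% and 53.8 ± 0.356% of the sum in the same order of groups. Gpx1 stood at 31.5 ± 0.471% in Ripk3-KO, 26.8 ± 0.127% in VilCre-Ripk3fl/fl and 33.3 ± 0.210% in WT, and Gpx3 stayed under 3% in each library. No group overlapped another in the Gpx4 or Gpx2 share. The Gpx2 share was lower in Ripk3-KO and higher in VilCre-Ripk3fl/fl than in WT, and the Gpx4 share was higher in both deletions. Shares of the same sum depend on each other, so they are no separate measure of either gene. These shares have no test.

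Gpx1 to Gpx4 and Txnrd1 contain selenocysteine, so 22 genes of selenoprotein synthesis and other selenoproteins were set beside them. In Ripk3-KO against WT, 6 were higher and 10 lower, with a median log2 fold change of -0.06, and in VilCre-Ripk3fl/fl against WT, 6 were higher and 7 lower, with a median of 0.02. Called in all were 16 and 13 of 22, beside 55.4% and 55.6% of all tested genes. Selenop, the secreted carrier of selenium, averaged 2239 CPM in Ripk3-KO, 1508 CPM in VilCre-Ripk3fl/fl and 716 CPM in WT libraries, log2 changes of 1.64 and 1.07 against WT (edgeR adjusted p = 1.05e-20 and 1.02e-16). Lrp8, a receptor that takes up selenoprotein P, averaged 4.84 CPM, 3.71 CPM and 21.0 CPM in the same order, log2 changes of -2.11 and -2.49 against WT (edgeR adjusted p = 4.45e-13 and 6.89e-14). Carrier and receptor therefore stood on opposite sides in both deletions. Dio1, a deiodinase of thyroid hormone, rose, with log2 changes of 0.81 and 1.66, and Selenow rose, with log2 changes of 0.48 and 0.23 (edgeR adjusted p at most 0.000908). In the deposited TPM Selenow averaged 349 TPM in VilCre-Ripk3fl/fl and 361 TPM in WT libraries, with overlap. The sign of that Selenow difference therefore depends on the scaling. Selenoh and Selenoi were lower in both deletions, Selenoh with log2 changes of -0.53 and -0.57 and Selenoi with log2 changes of -0.33 and -0.27 (edgeR adjusted p at most 4.03e-05).

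In the thioredoxin arm, the reductase and sulfiredoxin moved in opposite directions. Srxn1 (ENSMUSG00000032802, chr2:152105516-152111376, + strand), sulfiredoxin, which repairs over-oxidised peroxiredoxins and has the pair of AP-1 type letter runs shown above, was at 259, 262 and 255 CPM in Ripk3-KO libraries, 281, 299 and 294 CPM in VilCre-Ripk3fl/fl libraries and 217, 222 and 219 CPM in WT libraries. In CPM the groups did not overlap, and VilCre-Ripk3fl/fl was the highest. Srxn1 rose by a log2 change of 0.24 ± 0.04 (SE) in Ripk3-KO against WT (edgeR adjusted p = 4.97e-05) and of 0.41 ± 0.04 (SE) in VilCre-Ripk3fl/fl against WT (edgeR adjusted p = 2.09e-08). Between the deletions the log2 change was -0.17 ± 0.04 (SE), lower in Ripk3-KO (edgeR adjusted p = 0.00427). In the deposited TPM the deletions overlapped, at 211, 223 and 219 TPM in Ripk3-KO and 197, 216 and 216 TPM in VilCre-Ripk3fl/fl libraries, and the mean was higher in Ripk3-KO, so the order of the deletions depends on the scaling.

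Txnrd1 (ENSMUSG00000020250, chr10:82859206-82897724, + strand), the cytosolic thioredoxin reductase, was at 289, 318 and 324 CPM in Ripk3-KO, 321, 331 and 343 CPM in VilCre-Ripk3fl/fl and 365, 377 and 353 CPM in WT libraries. All libraries of the deletions lay below the WT libraries, in CPM by little in VilCre-Ripk3fl/fl. In the deposited TPM the gap was wider, at 186, 198 and 208 TPM in VilCre-Ripk3fl/fl and 262, 275 and 253 TPM in WT libraries. The size of this Txnrd1 difference therefore depends on the scaling. Txnrd1 fell in Ripk3-KO against WT, with a log2 change of -0.23 ± 0.05 (SE) (edgeR adjusted p = 0.000267). Its lower call, with a log2 change of -0.14 ± 0.05 (SE) in VilCre-Ripk3fl/fl against WT (edgeR adjusted p = 0.0208) was lost with upper-quartile scaling (edgeR adjusted p = 0.0939) and without VilCre-Ripk3fl/fl replicate 1 or 2 or WT replicate 1 or 2, with edgeR adjusted p of 0.0545 to 0.0997. Between the deletions Txnrd1 was not called, with a 95% interval of the log2 change of -0.20 to 0.01 (edgeR adjusted p = 0.15). Txnrd1 shares 1305 bases with Eid3 on the same strand, which was at 0.761 CPM in Ripk3-KO, 0.994 CPM in VilCre-Ripk3fl/fl and 1.01 CPM in WT libraries.

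Of 11 other genes of the thioredoxin system, 4 were higher and 3 lower in Ripk3-KO against WT, with 2 higher when WT replicate 2 was left out, and 6 were higher and 3 lower in VilCre-Ripk3fl/fl against WT. Their median log2 fold changes were 0.04 and 0.13, and 7 and 9 of 11 were called, beside 55.4% and 55.6% of all tested genes. Prdx1, a cytosolic peroxiredoxin and a substrate of sulfiredoxin, averaged 985 CPM in Ripk3-KO, 1103 CPM in VilCre-Ripk3fl/fl and 748 CPM in WT libraries, log2 changes of 0.40 and 0.56 against WT (edgeR adjusted p = 4.22e-07 and 1.41e-09). Prdx6, which uses glutathione in place of thioredoxin, averaged 275 CPM, 386 CPM and 538 CPM in the same order of groups, log2 changes of -0.97 and -0.48 against WT (edgeR adjusted p = 3.89e-14 and 2.73e-08). Mitochondrial Txn2 rose, with log2 changes of 0.22 and 0.40, and Txnrd3 fell, with log2 changes of -0.66 and -0.87 (edgeR adjusted p at most 0.000754). Prdx4, the peroxiredoxin of the endoplasmic reticulum, fell in Ripk3-KO, with a log2 change of -0.48 (edgeR adjusted p = 9.91e-06), and its log2 change in VilCre-Ripk3fl/fl was -0.09 (edgeR adjusted p = 0.325). Prdx5 rose in VilCre-Ripk3fl/fl, with a log2 change of 0.42 (edgeR adjusted p = 3.5e-08), and its log2 change in Ripk3-KO was 0.05 (edgeR adjusted p = 0.333).

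Of the textbook NRF2 targets Nqo1 and Hmox1, Hmox1 was called lower in both deletions and Nqo1 was called in no comparison. Nqo1 (ENSMUSG00000003849, chr8:107388225-107403206, - strand), a quinone reductase, was at 29.9, 25.6 and 27.8 CPM in Ripk3-KO, 29.9, 27.9 and 32.0 CPM in VilCre-Ripk3fl/fl and 31.0, 30.0 and 31.6 CPM in WT libraries. VilCre-Ripk3fl/fl libraries overlapped both other groups, and Ripk3-KO libraries lay just under the WT libraries. Its 95% intervals of the log2 change were -0.31 to 0.01 in Ripk3-KO against WT, -0.20 to 0.12 in VilCre-Ripk3fl/fl against WT and -0.27 to 0.05 in Ripk3-KO against VilCre-Ripk3fl/fl. The edgeR adjusted p was 0.0942, 0.656 and 0.312 in that order, and without Ripk3-KO replicate 1 the edgeR adjusted p of Ripk3-KO against WT was 0.0364. In the deposited TPM both deletions lay below WT without overlap, at 44.0, 39.4 and 43.4 TPM in Ripk3-KO, 38.2, 36.7 and 42.7 TPM in VilCre-Ripk3fl/fl and 48.9, 48.2 and 49.8 TPM in WT libraries.

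Hmox1 (ENSMUSG00000005413, chr8:75093621-75100589, + strand), heme oxygenase, which breaks down heme and is also induced in macrophages, was at 6.14, 7.37 and 5.60 CPM in Ripk3-KO, 3.64, 4.01 and 3.30 CPM in VilCre-Ripk3fl/fl and 16.0, 19.2 and 19.3 CPM in WT libraries. The groups did not overlap, and WT was the highest. Hmox1 fell 2.85-fold in Ripk3-KO against WT, a log2 change of -1.51 ± 0.13 (SE) (edgeR adjusted p = 4.06e-10), and 4.98-fold in VilCre-Ripk3fl/fl against WT, a log2 change of -2.32 ± 0.14 (SE) (edgeR adjusted p = 7.17e-13). Between the deletions it was higher in Ripk3-KO by a log2 change of 0.80 ± 0.15 (SE) (edgeR adjusted p = 0.000141). The changes of Hmox1 against WT are the largest of any member, in the one with the fewest counts, 86 to 591 per library.

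Phagocyte genes also differed between the groups. Of 8 neutrophil genes, 7 were lower in both deletions against WT, with summed levels of 6.07 to 10.3 CPM in Ripk3-KO, 4.66 to 9.98 CPM in VilCre-Ripk3fl/fl and 50.2 to 57.6 CPM in WT libraries, and Ly6g was at 0 in all VilCre-Ripk3fl/fl libraries. Of 10 macrophage genes, 6 were higher and 1 lower in Ripk3-KO against WT, and 1 was higher and 8 lower in VilCre-Ripk3fl/fl against WT. Their summed level was 491 to 521 CPM in Ripk3-KO, 299 to 319 CPM in VilCre-Ripk3fl/fl and 460 to 473 CPM in WT libraries. Lyz2 was a large part of the sum, at 232 CPM in Ripk3-KO, 102 CPM in VilCre-Ripk3fl/fl and 223 CPM in WT libraries. Cd68 averaged 6.74 CPM in Ripk3-KO, 6.36 CPM in VilCre-Ripk3fl/fl and 11.3 CPM in WT libraries. It is the 1 macrophage gene that was lower in Ripk3-KO, where 6 were higher. Lyz2 and Cd68 were named after their values were seen. The part of phagocytes in the Hmox1 values was not tested.

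Of 9 NRF2 regulators, 5 were higher and 1 lower in Ripk3-KO against WT, with 3 higher when Ripk3-KO replicate 3 or WT replicate 3 was left out, and 2 were higher and 3 lower in VilCre-Ripk3fl/fl against WT. The median log2 fold changes were 0.15 and -0.09, and 6 and 5 of 9 were called, beside 55.4% and 55.6% of all tested genes. Nfe2l2, which encodes NRF2, averaged 206 CPM in Ripk3-KO, 223 CPM in VilCre-Ripk3fl/fl and 195 CPM in WT libraries, and it rose in VilCre-Ripk3fl/fl by a log2 change of 0.19 (edgeR adjusted p = 0.00143). The Nfe2l2 log2 change of 0.08 in Ripk3-KO was not called (edgeR adjusted p = 0.162). In the deposited TPM Nfe2l2 averaged 119 TPM in VilCre-Ripk3fl/fl and 127 TPM in WT libraries, with overlap. The sign of the Nfe2l2 difference between VilCre-Ripk3fl/fl and WT therefore depends on the scaling. Cul3, the scaffold of the ligase that degrades NRF2, fell, with log2 changes of -0.31 and -0.29 in the deletions against WT (edgeR adjusted p = 5.72e-05 and 0.000192). Sqstm1, the p62 adaptor that sequesters KEAP1, rose in Ripk3-KO, with a log2 change of 0.29 (edgeR adjusted p = 9.22e-06), and its log2 change in VilCre-Ripk3fl/fl was -0.10 (edgeR adjusted p = 0.0787). Nfe2l1, a relative of NRF2, fell in VilCre-Ripk3fl/fl, with a log2 change of -0.38 (edgeR adjusted p = 6.4e-06). The small MAF partner Mafk rose, with a log2 change of 0.19 in Ripk3-KO and of 0.31 in VilCre-Ripk3fl/fl (edgeR adjusted p = 0.00443 and 4.17e-05). Maff rose in Ripk3-KO, with a log2 change of 0.36 (edgeR adjusted p = 0.000635), and its lower call, with a log2 change of -0.24 in VilCre-Ripk3fl/fl (edgeR adjusted p = 0.0184) was lost without VilCre-Ripk3fl/fl replicate 1 or without WT replicate 1 or 3. These are transcript levels, and NRF2 activity was not measured.

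Of 12 genes of heme and iron handling around Hmox1, 11 could be tested, and 2 were higher and 3 lower in Ripk3-KO against WT, and 1 was higher and 6 lower in VilCre-Ripk3fl/fl against WT, where the higher count became 2 or 3 under 9 of the alternatives. Called in all were 5 and 7 of 11, beside 55.4% and 55.6% of all tested genes. Slc40a1, the iron exporter ferroportin, averaged 12.8 CPM in Ripk3-KO, 71.4 CPM in VilCre-Ripk3fl/fl and 86.2 CPM in WT libraries, log2 changes of -2.75 and -0.27 against WT (edgeR adjusted p = 3.33e-21 and 0.000669). Tfrc, the transferrin receptor, fell, with log2 changes of -0.41 and -0.42 (edgeR adjusted p = 1.54e-07 and 1.39e-07). Fth1, ferritin heavy chain, rose in VilCre-Ripk3fl/fl, with a log2 change of 0.49 (edgeR adjusted p = 2.05e-08), and its log2 change in Ripk3-KO was -0.08 (edgeR adjusted p = 0.194).

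Hp, haptoglobin, averaged 83.3 CPM in Ripk3-KO, 2.99 CPM in VilCre-Ripk3fl/fl and 53.5 CPM in WT libraries, log2 changes of 0.64 and -4.18 against WT (edgeR adjusted p = 0.00186 and 1.51e-08). Cd163, the macrophage receptor for haptoglobin bound to hemoglobin, averaged 4.08 CPM, 0.674 CPM and 2.57 CPM in the same order of groups. Its higher call, with a log2 change of 0.67 in Ripk3-KO (edgeR adjusted p = 0.0275) was lost without Ripk3-KO replicate 1 or 3 and without WT replicate 1 or 3, which leaves 1 higher gene in this list in each of these cases, and its log2 change in VilCre-Ripk3fl/fl was -1.91 (edgeR adjusted p = 8.11e-06).

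Most glutathione transferases, which join glutathione to electrophiles, were higher in each deletion than in WT. Of 23 genes, 22 were tested, and 15 were higher and 4 lower in Ripk3-KO against WT and 16 higher and 3 lower in VilCre-Ripk3fl/fl against WT. Their median log2 fold changes were 0.345 and 0.50, against 0.01 and 0.02 over all tested genes. In each comparison 19 of 22 were called, beside 55.4% and 55.6% of all tested genes. Gstm3 averaged 123 CPM in Ripk3-KO, 156 CPM in VilCre-Ripk3fl/fl and 34.1 CPM in WT libraries, log2 changes of 1.85 and 2.20 against WT (edgeR adjusted p = 4.23e-20 and 1.47e-21). Gstm1 averaged 86.2 CPM, 85.9 CPM and 26.6 CPM in the same order, log2 changes of 1.70 and 1.69 against WT (edgeR adjusted p = 4.5e-18 and 8.98e-18). Both are mu class genes, a cluster of near-identical copies whose reads the counting could have split, so the values of single copies are uncertain.

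Against the run of the list, the microsomal transferase Mgst1 fell, with log2 changes of -0.47 in Ripk3-KO and of -0.97 in VilCre-Ripk3fl/fl against WT (edgeR adjusted p = 6.1e-09 and 7.89e-15). Gsta1 fell in Ripk3-KO, with a log2 change of -0.52 (edgeR adjusted p = 1.85e-06), and its log2 change in VilCre-Ripk3fl/fl was 0.13 (edgeR adjusted p = 0.097), called higher with upper-quartile scaling and in the fit of only the 2 groups compared. In the deposited TPM Gsta1 was at 485 to 525 TPM in VilCre-Ripk3fl/fl and 533 to 569 TPM in WT libraries. The sign of that Gsta1 difference therefore depends on the scaling. Gstk1 fell in VilCre-Ripk3fl/fl, with a log2 change of -0.29 (edgeR adjusted p = 0.00221). In Ripk3-KO its log2 change was 0.20, a higher call (edgeR adjusted p = 0.0237) that was lost without Ripk3-KO replicate 1 and without WT replicate 1 or 2. Markers of smooth muscle moved with this list: all 8 were higher in both deletions, with sums of 3321 to 3686 CPM in Ripk3-KO, 2888 to 3070.2 CPM in VilCre-Ripk3fl/fl and 1421 to 1480.3 CPM in WT libraries. Smooth muscle was not alone in this. The 10 adipocyte genes, as given above, were higher in both deletions too. Of 7 endothelial genes, 7 were higher with whole-body deletion and 6 with epithelial deletion, each against WT. Neutrophil genes went the other way, with 7 of 8 lower in both. The part of any of these cell types in the transferase values was not tested.

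**Figure D4:**
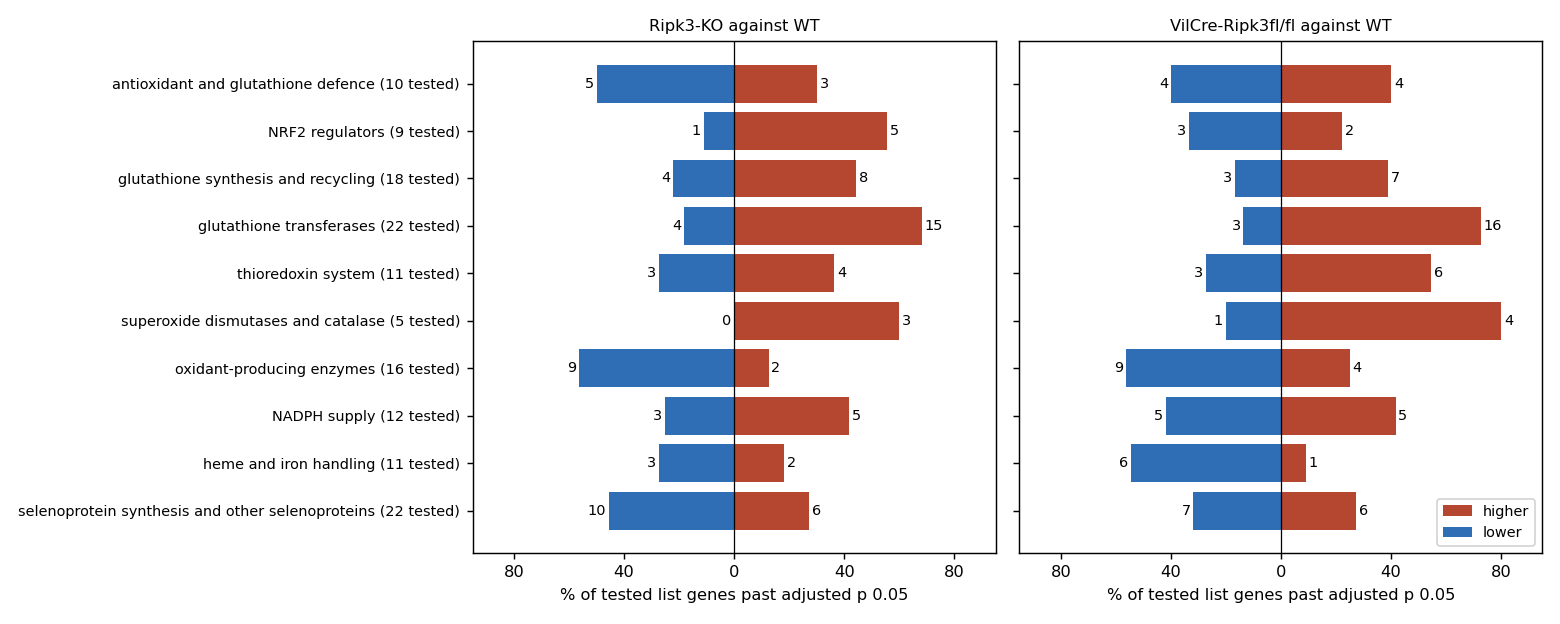
Share in % (x axis) of the tested genes of each list that were higher (red, right) or lower (blue, left) in Ripk3-KO against WT and VilCre-Ripk3fl/fl against WT, at an edgeR adjusted p under 0.05. Numbers are genes. Transferases reach 15 and 16 higher of 22, and oxidant-producing enzymes reach 9 lower of 16 in both. Over all tested genes, 27.3% were higher and 28.1% lower in Ripk3-KO against WT, and 27.2% and 28.4% in VilCre-Ripk3fl/fl against WT.

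Among superoxide dismutase and catalase genes most called genes were higher, and among enzymes that make oxidants most were lower. Over all tested genes, 27.3% were higher and 28.1% lower in Ripk3-KO against WT, and 27.2% and 28.4% in VilCre-Ripk3fl/fl against WT. Other genes whose products remove hydrogen peroxide went both ways, as given above. Prdx1 was higher and Prdx6 lower in both deletions, and Gpx2 was lower in Ripk3-KO and higher in VilCre-Ripk3fl/fl. Of 5 superoxide dismutase and catalase genes, 3 were higher and 0 lower in Ripk3-KO against WT, with 5 higher under upper-quartile scaling, and 4 were higher and 1 lower in VilCre-Ripk3fl/fl against WT. Cat, catalase, averaged 167 CPM in Ripk3-KO, 120.0 CPM in VilCre-Ripk3fl/fl and 55.3 CPM in WT libraries, log2 changes of 1.59 and 1.12 against WT (edgeR adjusted p = 7.39e-18 and 1.94e-14). Sod1, the cytosolic dismutase, rose in VilCre-Ripk3fl/fl, with a log2 change of 0.34 (edgeR adjusted p = 6.18e-05), and its log2 change in Ripk3-KO was 0.10 (edgeR adjusted p = 0.159). Sod3, the extracellular dismutase, rose in Ripk3-KO, with a log2 change of 0.90 (edgeR adjusted p = 1.7e-07), and it is the lower gene in VilCre-Ripk3fl/fl, with a log2 change of -0.31 (edgeR adjusted p = 0.0305). That lower call was lost under 7 alternatives, namely upper-quartile scaling, the fit of only the 2 groups compared, limma-voom, and without any 1 VilCre-Ripk3fl/fl library or WT replicate 1, with adjusted p of 0.0514 to 0.155 (edgeR or limma). Catalase is also abundant in adipocytes, and the adipocyte sums given above moved with it. Their part in it was not tested.

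Of 16 oxidant-producing enzymes and their partners, 2 were higher and 9 lower in Ripk3-KO against WT, and 4 were higher and 9 lower in VilCre-Ripk3fl/fl against WT, with median log2 fold changes of -0.34 and -0.25. Called in all were 11 and 13 of 16, beside 55.4% and 55.6% of all tested genes. Nos2, inducible nitric oxide synthase, averaged 35.9 CPM in Ripk3-KO, 68.5 CPM in VilCre-Ripk3fl/fl and 177 CPM in WT libraries, log2 changes of -2.30 and -1.37 against WT (edgeR adjusted p = 4.5e-20 and 1.94e-15). Cybb and Cyba, the chains of the phagocyte NADPH oxidase, fell in both deletions, Cybb with log2 changes of -0.68 and -1.49 and Cyba with log2 changes of -0.94 and -0.28 (edgeR adjusted p at most 0.000646). The neutrophil genes given above were lower in the same libraries, and their part in this was not tested. Duox2, the dual oxidase of the epithelial surface, rose, with log2 changes of 0.43 and 1.41 (edgeR adjusted p = 5.25e-05 and 2.05e-11), and its maturation factor Duoxa2 fell in Ripk3-KO, with a log2 change of -0.38, and rose in VilCre-Ripk3fl/fl, with a log2 change of 0.93 (edgeR adjusted p = 4.85e-07 and 3.46e-14). Nox4 rose in Ripk3-KO, with a log2 change of 1.89, at 0.689 CPM against 0.184 CPM in WT (edgeR adjusted p = 0.0132), a call lost without Ripk3-KO replicate 3 or without WT replicate 1 or 3, which leaves 1 higher gene in this list in each case, as does a filter at 1 CPM.

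Glutathione reductase and the thioredoxin reductases draw on NADPH, for whose supply 12 genes were tested. In Ripk3-KO against WT, 5 were higher and 3 lower, and in VilCre-Ripk3fl/fl against WT, 5 were higher and 5 lower, with 3 higher when VilCre-Ripk3fl/fl replicate 1 or 2 or WT replicate 2 was left out. Called in all were 8 and 10 of 12, beside 55.4% and 55.6% of all tested genes. Me1, cytosolic malic enzyme, averaged 396 ± 9.95 CPM in Ripk3-KO, 56.1 ± 5.31 CPM in VilCre-Ripk3fl/fl and 36.4 ± 2.98 CPM in WT libraries (SD, n = 3 each), log2 changes of 3.45 and 0.63 against WT (edgeR adjusted p = 6.76e-23 and 2.29e-08). Me1 is abundant in adipose tissue, whose genes were highest in the same libraries, and the part of this in the Me1 values was not tested. Me2 rose, with log2 changes of 0.35 and 0.29 (edgeR adjusted p = 5.57e-07 and 8.31e-06). In the deposited TPM Me2 averaged 202 TPM in VilCre-Ripk3fl/fl and 200.3 TPM in WT libraries, with overlap. Nnt, the mitochondrial transhydrogenase, rose in Ripk3-KO, with a log2 change of 0.78, and fell in VilCre-Ripk3fl/fl, with a log2 change of -0.38 (edgeR adjusted p = 5.07e-09 and 0.000384). The dehydrogenases of the pentose phosphate route were lower: H6pd had log2 changes of -0.75 and -1.31, and Pgd of -0.22 and -0.25 in the deletions against WT (edgeR adjusted p at most 0.000107). G6pdx fell in VilCre-Ripk3fl/fl, with a log2 change of -0.60 (edgeR adjusted p = 3.19e-10), and its lower call, with a log2 change of -0.14 in Ripk3-KO (edgeR adjusted p = 0.0215) was lost with upper-quartile scaling, without Ripk3-KO replicate 1 or 3 and without WT replicate 1 or 2. G6pdx is on the X chromosome, and sex and whole-body deletion cannot be told apart.

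Levels of different members can be set beside each other in the deposited TPM. In Ripk3-KO libraries the order from high to low was Gpx2 at 1516 ± 61.1 TPM, Gpx1 at 1041 ± 14.3, Gpx4 at 666 ± 19.2, Srxn1 at 218 ± 6.20, Txnrd1 at 216 ± 19.4, Gpx3 at 83.3 ± 0.614, Nqo1 at 42.3 ± 2.52, Gclm at 33.5 ± 1.03, Gclc at 21.2 ± 3.48 and Hmox1 at 8.62 ± 1.27 TPM (SD, n = 3). VilCre-Ripk3fl/fl libraries had the same order, with 2408 ± 111 TPM for Gpx2, 1083 ± 52.1 for Gpx1, 499.5 ± 21.9 for Gpx4, 23.5 ± 1.65 for Gclm, 17.5 ± 1.18 for Gclc and 4.23 ± 0.396 TPM for Hmox1. In both deletions Srxn1 and Txnrd1 overlapped over their libraries and no other neighbours in the order did. In WT libraries Txnrd1 at 263 ± 11.2 TPM stood above Srxn1 at 191 ± 4.04 TPM, and Gclc at 38.4 ± 0.694 TPM above Gclm at 30.4 ± 0.552 TPM, with no overlap between neighbours. The summed TPM of the 10 members was 3845 ± 82.7 in Ripk3-KO, 4537 ± 165 in VilCre-Ripk3fl/fl and 4217 ± 17.8 in WT, of which Gpx2 was the largest part in every library.

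The gene with the pattern most similar to a member's was taken as the one with the smallest root-mean-square difference in mean-centred log2 CPM over the 9 libraries, among 10598 genes. For Gpx4 it was Gadd45a, at a difference of 0.057, which averaged 83.5 CPM in Ripk3-KO, 73.8 CPM in VilCre-Ripk3fl/fl and 45.1 CPM in WT libraries. For Hmox1 it was Lrg1, at 0.132, which averaged 7.15 CPM in Ripk3-KO, 3.93 CPM in VilCre-Ripk3fl/fl and 20.8 CPM in WT libraries. For Gpx2 it was Sprr2a3 at 0.065, for Gclm Mttp at 0.026, for Srxn1 Dennd3 at 0.021, for Gpx1 Bcl2l1 at 0.018, for Gpx3 Tor3a at 0.053, for Txnrd1 Szrd1 at 0.037 and for Nqo1 Mina at 0.046. With 9 libraries in 3 groups, many genes share a pattern, and these names are a description.

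The authors' deposited table holds fold changes against WT of its own, and it called fewer members. In Ripk3-KO against WT, the authors' deposited table has an adjusted p under 0.05 for 2 of 10 members, Hmox1 and Gclc, and for 12.6% of the 26529 genes with a p. In VilCre-Ripk3fl/fl against WT, the authors' deposited table has it for 4 of 10 members, Hmox1, Gclc, Gpx2 and Gpx3, and for 14.1% of genes. Its sign was that of the edgeR fit for 10 of 10 members in both comparisons, and its values differed from the fit by up to 0.48 and 0.45 on the log2 scale, most for Hmox1. Some of these values are near 0 where the edgeR fit made a call. For Srxn1 the authors' deposited table gives log2 changes against WT of 0.03 for Ripk3-KO and 0.18 for VilCre-Ripk3fl/fl (its adjusted p is 0.996 and 0.622). For Gclm in Ripk3-KO against WT the authors' deposited table gives 0.06 (its adjusted p is 0.902), and for Gpx1 in VilCre-Ripk3fl/fl against WT 0.02 (its adjusted p is 0.991). For Gpx4 the authors' deposited table gives log2 changes of 0.50 in Ripk3-KO against WT (its adjusted p is 0.136) and 0.28 in VilCre-Ripk3fl/fl against WT (its adjusted p is 0.456). For Gclc the authors' deposited table gives -1.18 and -1.25 in the same comparisons (its adjusted p is 1.12e-09 and 1.26e-10). In VilCre-Ripk3fl/fl against WT the authors' deposited table gives 0.60 for Gpx2 (its adjusted p is 0.0143), a larger rise than that of Gpx4.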

How the data were processed

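Total RNA of mouse small intestine was sequenced in 9 libraries, 3 per genotype, with groups and replicate numbers taken from the sample titles. Per the labels' protocols, ribosomal RNA was depleted; 2 strand-marking library kits are named alike for all groups, and which kit made which library is not given in the sources used here, so a kit difference between groups was not tested. Per the submitters' processing notes, Trimmomatic, STAR, HTSeq and DESeq2 and the build mm10 were used; their roles and versions, and whether counting used strand, are not given in the sources used here. Deposited values are whole-number counts per gene and, per the file headers, TPM, which the authors scaled by gene length and depth, together with the authors' log2 fold changes and FDR p-values against WT. CPM was computed from the counts, and the deposited CPM and RPKM were left unused. Of 48709 lines of the table, 1 was not analysed here.

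The test was edgeR's robust quasi-likelihood F test (edgeR 4.0.16, R 4.3.3), 2-sided, in 1 model with a mean for each of the 3 groups. The filter filterByExpr by group left 16539 genes, and libraries were scaled by TMM, with Benjamini-Hochberg adjustment over all tested genes and a threshold of 0.05. Group values are mean ± SD over 3 libraries. Fold changes use a prior count of 0.125, and SE comes from the quasi-likelihood F statistic. Total counts were 25375499 to 41038990. Libraries of a group differed beyond counting noise, with chi-square per degree of freedom of 3.57 to 12.0.

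The members and the lists set beside them were chosen with earlier results of these data known. Named list genes are, in each comparison with WT, up to 2 higher and 2 lower with the smallest p, and others are said to have been named after their values were seen. Of 234 list genes, 12 were matched by gene identifier because the table uses an older symbol. Upstream sequence is from RefSeq, build GRCm38.p6. The procedure was tested on simulated data. Alternatives were RLE and upper-quartile scaling, TMM without pancreas, adipocyte and erythroid genes, looser (1 read) and stricter (1 CPM in 3 libraries) filters, fits without the third group, limma-voom (limma 3.58.1), DESeq2 1.42.0, a replicate block, and the loss of any 1 library. The gene with the most similar pattern is not reported here for every member.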

Additional observations from a re-analysis of the deposited data

How the results depend on the processing

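Over 15 alternatives per comparison, the 10 members gave 450 values. Of these, 437 kept their side of the threshold, 12 lost a call and 1 gained one. No called value changed sign, and 2 uncalled ones did: Nqo1 in VilCre-Ripk3fl/fl against WT without VilCre-Ripk3fl/fl replicate 2 (a log2 change of 0.008) and Gclc in Ripk3-KO against VilCre-Ripk3fl/fl without Ripk3-KO replicate 2 (-0.018). The lost calls are Gpx1 in both comparisons with WT and Txnrd1 in VilCre-Ripk3fl/fl against WT, and the gained call is Nqo1 in Ripk3-KO against WT; the cause was not tested. Gpx1 in VilCre-Ripk3fl/fl against WT was also lost with no filter beyond 1 read (edgeR adjusted p = 0.0818). Leaving out 1 library at a time gave 8 to 9 members called in Ripk3-KO against WT, 6 to 8 in VilCre-Ripk3fl/fl against WT and 7 in Ripk3-KO against VilCre-Ripk3fl/fl. In the same order, these fits called 8240 to 8626, 8315 to 8861 and 4069 to 5226 of all genes, with 16914 to 17041 genes tested.

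Replicate numbers do not pair the libraries: the deviations of same-numbered libraries from their group means had correlations of -0.04 to 0.09, and for 2 of 9 libraries the best match was one of the same number. With the replicate number as a block, 8, 8 and 7 members were called, as without it, and 9211, 9247 and 5371 of all genes, against 9164, 9201 and 5244 without it, in the order Ripk3-KO against WT, VilCre-Ripk3fl/fl against WT, Ripk3-KO against VilCre-Ripk3fl/fl. With the block Gsta1 was called higher in VilCre-Ripk3fl/fl against WT (edgeR adjusted p = 0.0483).

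Hmox1 had 86 to 591 counts per library, so counting error weighs most on it. Pancreatic and adipose tissue differ between the groups and cannot be told apart from genotype in these libraries. The same holds for sex in the comparisons that include Ripk3-KO. VilCre-Ripk3fl/fl and WT libraries were alike in Xist, as given above. They were also alike in Ddx3y, a gene of the Y chromosome, at 38.1 and 39.8 CPM, against 0.477 CPM in Ripk3-KO.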

Other observations

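Set directly against each other, the deletions differed in several lists around the members. In Ripk3-KO against VilCre-Ripk3fl/fl, 1 of 11 thioredoxin system genes was higher and 8 were lower, beside 16.6% higher and 15.1% lower of all tested genes, and the list's median log2 fold change was -0.18, against 0.01 over all tested genes. Prdx5 was at 365 CPM in Ripk3-KO and 470.0 CPM in VilCre-Ripk3fl/fl libraries, a log2 change of -0.36 (edgeR adjusted p = 8.11e-07), and Prdx6 had a log2 change of -0.49 (edgeR adjusted p = 5.56e-08). Of 12 NADPH supply genes, 6 were higher and 0 lower in Ripk3-KO, with Me1 at a log2 change of 2.82 (edgeR adjusted p = 2.83e-21). Of 9 NRF2 regulators, 5 were higher and 0 lower in Ripk3-KO, with Sqstm1 at a log2 change of 0.39 (edgeR adjusted p = 3.16e-07). The count of 0 became 1 or 2 for NRF2 regulators without Ripk3-KO replicate 1 or VilCre-Ripk3fl/fl replicate 1, with DESeq2 and with a filter at 1 CPM, and 1 for NADPH supply without VilCre-Ripk3fl/fl replicate 3, with a replicate block and with no filter beyond 1 read.

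Of 16 oxidant-producing enzymes, 2 were higher and 8 lower in Ripk3-KO against VilCre-Ripk3fl/fl, beside 16.6% higher and 15.1% lower of all tested genes. Duoxa2 was at 76.8 CPM in Ripk3-KO and 190.1 CPM in VilCre-Ripk3fl/fl libraries, a log2 change of -1.31 (edgeR adjusted p = 4.33e-17), and Duox2 was at 263 CPM in Ripk3-KO and 518 CPM in VilCre-Ripk3fl/fl libraries, a log2 change of -0.98 (edgeR adjusted p = 5.66e-09). Gpx2 stood lower in Ripk3-KO than in VilCre-Ripk3fl/fl as well.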
